A study of Mus musculus with 2 samples.

Results

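The Notch cleavage and Fringe enzymes are the proteases that cut Notch receptors and the glycosyltransferases that set which ligand a receptor answers to. They were taken from the deposited expression table by gene symbol, which gave 9 of the 22156 genes listed. These were the gamma-secretase subunit genes Psen2, Ncstn, Psenen, Aph1a and Aph1b, the sheddase genes Adam10 and Adam17, and the Fringe genes Lfng and Rfng. All 9 were found and all 9 had enough reads to be tested.

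The study asked what loss of Myl3, a myosin light chain gene, does to chondrocytes, the cells of cartilage. RNA of primary chondrocytes was sequenced in 1 control library and 1 Myl3-KO library. The sample labels give rib cartilage as the source, whereas the methods name both rib and articular cartilage. According to the methods, Myl3-KO mice carried Col2a1-Cre, which is active in cells that make type II collagen, together with Myl3 flox/flox, and controls were littermates with Myl3 flox/flox alone, while the sample labels call the control WT. By the methods both groups carry the floxed allele and only Myl3-KO carries Cre, and by the label the allele would differ as well. Effects of the deletion, of Cre and, if the label holds, of the floxed allele cannot be told apart. Cells came from newborn mice aged 24 to 72 h and were cultured untreated, in a single layer, in DMEM/F12 medium that contained 10% FBS. The number of mice behind each library, and whether they were pooled, is not given in the sources used here.

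Gamma-secretase is an intramembrane protease made of a presenilin, which is the catalytic subunit, nicastrin (Ncstn), an APH-1 protein and PEN-2 (Psenen). When a ligand on a neighbouring cell pulls on a Notch receptor, ADAM10, and in some settings ADAM17, removes the outer part, and gamma-secretase then cuts the remaining stub within the membrane. The freed intracellular domain goes to the nucleus and works there with RBPJ. Fringe enzymes act earlier, in the Golgi, where they add N-acetylglucosamine to the O-fucose on the receptor and so change its response to Delta and Jagged ligands.

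The libraries held 17612434.91 expected counts (control) and 13477976.98 (Myl3-KO), and the 12431 genes whose counts summed to 10 or more were tested. Myl3 itself had 0 counts in both libraries, so its loss could not be checked here. Of 10 chondrocyte marker genes, 5 were at 0 in both libraries (Acan, Matn1, Matn3, Hapln1 and Cnmd), and Col2a1 had only 30 counts in control cells and 27 in Myl3-KO cells. Sox9, a transcription factor of the cartilage lineage, was lower in Myl3-KO, with 866 and 480 counts. Fibroblast markers were abundant, summing to 15461 CPM (counts scaled to a library total of 1000000) in the control and 17531 in Myl3-KO, of which Col1a2 alone gave 12017 and 14039. Of the 7 fibroblast markers tested, 3 were higher, among them Pdgfra at a log2 ratio of 0.61, and 3 were lower, among them Dcn at -1.64 and Lum at -1.36, and Thy1 was at 0 in both libraries. Immune markers summed to 5.06 and 4.67 CPM, and endothelial and skeletal muscle markers to less than 1 CPM in each library. The labelled cell type therefore lacked most of its defining markers in both libraries. What part these marker differences had in the values below was not tested. In such bulk RNA, fewer cells of a type and less RNA per cell cannot be told apart.

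Each gene was compared by its CPM, and the ratio is Myl3-KO over control on the log2 scale with a 95% Clopper-Pearson interval. The test was a two-sided exact binomial test of the counts against the library totals, with Benjamini-Hochberg adjustment over all genes tested. With 1 library per genotype it compares these 2 libraries and covers counting error only, and it does not cover differences between mice or cultures. In this sense 2 of the 9 enzymes were higher in Myl3-KO (Ncstn and Rfng), 1 was lower (Psenen) and 6 were within counting error. Among all genes tested, 18.6% were higher and 16.8% were lower, and among the 8219 genes whose counts summed to 500 or more, which include 8 of the 9 enzymes, 22.4% were higher and 23.6% were lower. The enzymes' counts therefore lie near the background. None of the 9 reached a 1.5-fold difference, against 9.07% of all genes tested, scarcely counted ones included. That share was not computed for the well counted genes, and the difference from it was not tested. The median log2 ratio of the 9 enzymes was -0.04, beside 0.02 over all genes tested, and their ratios ran from -0.27 to 0.49.

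**Figure D1:**
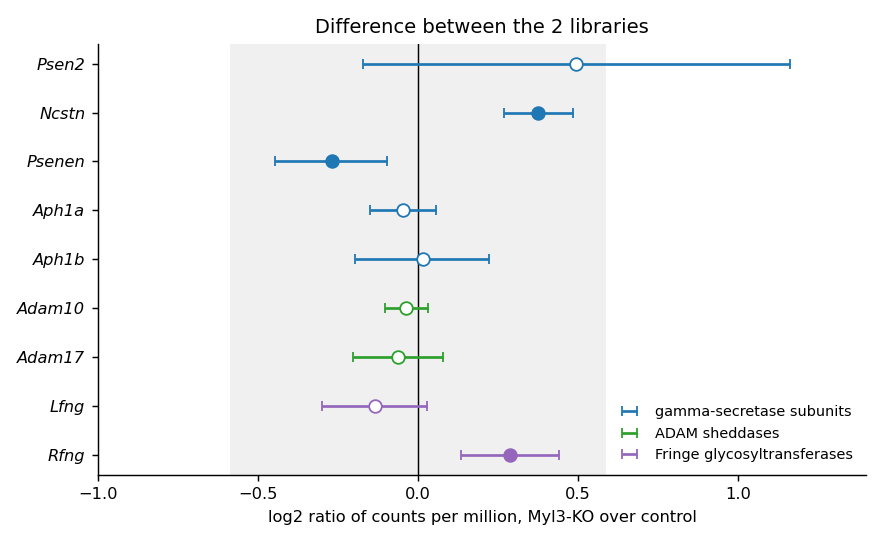
Log2 ratio of CPM, Myl3-KO over control, for each enzyme gene (x axis), with 95% counting intervals as bars, coloured by family. Filled points differ beyond counting error (adjusted p under 0.05), open points do not, and the grey band marks differences under 1.5-fold, which holds all 9 points.

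Per transcript length, the enzymes covered a wide range of levels. FPKM (fragments scaled by transcript length and library size) allows genes to be ordered within a library, and its 95% intervals here are exact Poisson intervals of the counts. In the control, Psenen had the highest level (55.5, 51.5 to 59.8), followed by Adam10 (53.6, 52.0 to 55.2), Aph1a (41.9), Ncstn (27.3), Rfng (19.6, 18.2 to 21.1), Lfng (18.4, 17.1 to 19.7), Adam17 (12.3), Aph1b (5.03) and Psen2 (1.11). The intervals of Psenen and Adam10 overlapped, as did those of Rfng and Lfng, and no other neighbours in this order overlapped. In Myl3-KO, Adam10 came first (52.0, 50.2 to 53.8), then Psenen (46.1, 41.9 to 50.6) and Aph1a (40.2, 38.1 to 42.4), with overlap between neighbours. Ncstn (35.4), Rfng (23.9), Lfng (16.7), Adam17 (11.8), Aph1b (5.08) and Psen2 (1.66) followed without overlap. Adam10 stood at the 86.9th percentile of the genes tested by control FPKM and Psen2 at the 14.9th, so the family holds both abundant and scarce transcripts.

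**Figure D2:**
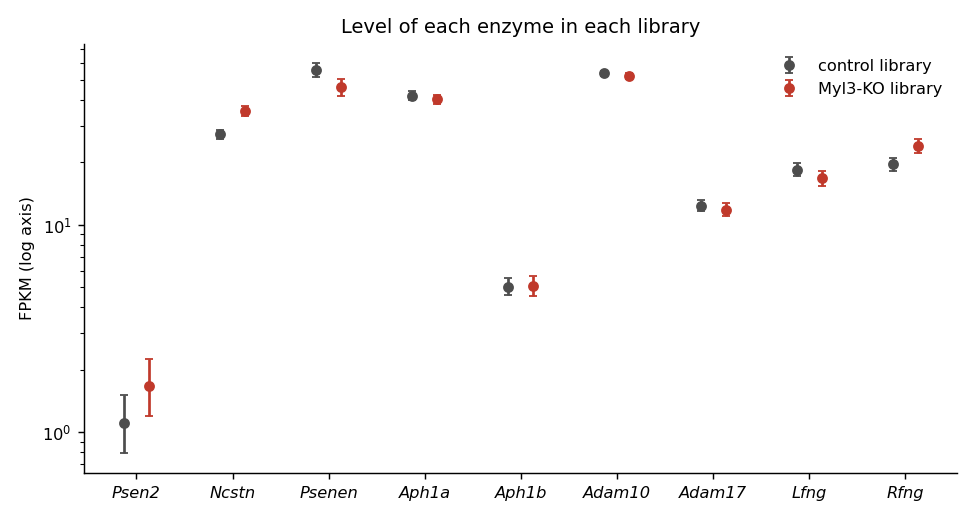
FPKM of each enzyme gene (log axis) in the control library (grey) and the Myl3-KO library (red), with exact 95% Poisson intervals of the counts as bars. Psen2 lies at 1.11 and 1.66 and Adam10 at 53.6 and 52.0, and the intervals of the paired points do not overlap for Ncstn, Psenen and Rfng and overlap for the other 6 genes.

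Among the gamma-secretase subunits, Ncstn was higher and Psenen was lower in Myl3-KO, while Aph1a, Aph1b and Psen2 were within counting error. Ncstn (ENSMUSG00000003458, chromosome 1, 172066013 to 172082795, minus strand) encodes nicastrin, the large glycoprotein subunit that takes part in admitting substrates. It had 1393.52 control counts and 1383.62 in the shallower Myl3-KO library, or 79.1 and 102.7 CPM. This was 1.30-fold higher in Myl3-KO, a log2 ratio of 0.38 (0.27 to 0.48), with an adjusted p of 1.5e-10 in the exact binomial test. It was the best supported difference among the 9 enzymes by this test.

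Ncstn shares its 5′ end with Copa, a coat protein gene on the opposite strand. In GENCODE M21 the exons overlap over 195 bases, 4.91% of the exon bases of Ncstn, and whether counting used strand is not given in the sources used here. Copa had 7277.48 and 6061.38 counts, a log2 ratio of 0.12 (0.07 to 0.17), so it was also higher in Myl3-KO but by less than Ncstn.

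Psenen (ENSMUSG00000036835, chromosome 7, 30561863 to 30563627, minus strand) encodes PEN-2, the small subunit that joins the complex and is needed for the presenilin to be cleaved into its active form. Its counts were 692 (control) and 439 (Myl3-KO), or 39.3 and 32.6 CPM. This was a fold of 0.829, with a log2 ratio of -0.27 (-0.45 to -0.10) and an adjusted p of 0.0087 in the exact binomial test. Psenen moved in the opposite direction to Ncstn.

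Psenen has the shortest longest transcript of the 9 genes, with 708 bases. Of its 1355 words of 31 bases, 20.4% also occur in Gm12396 and 12.3% in Gm20369, so reads could be shared with them. Neither gene is listed in the deposited expression table. On the opposite strand, U2af1l4 overlaps 9.33% of the exon bases of Psenen and had 175 and 127 counts, a log2 ratio of -0.08 (-0.42 to 0.26). Gm49396, also on the opposite strand and not listed in the deposited expression table, overlaps 8.71% of them.

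Aph1a and Aph1b encode alternative forms of the scaffold subunit APH-1, and a gamma-secretase complex holds 1 of them. Aph1a (ENSMUSG00000015750, chromosome 3, 95893969 to 95898288, plus strand) had 1812 and 1341 counts, or 102.9 and 99.5 CPM, a log2 ratio of -0.05 (-0.15 to 0.05). Aph1b (ENSMUSG00000032375, chromosome 9, 66775202 to 66795490, minus strand) had 434.6 and 336.35 counts, or 24.68 and 24.96 CPM, a log2 ratio of 0.02 (-0.20 to 0.22). Of the words of Aph1a, 21.9% also occur in Gm15429, a gene not listed in the deposited expression table. Car14, which overlaps Aph1a on the opposite strand, was at 0 in both libraries. By FPKM, Aph1a was 8.34-fold above Aph1b in the control and 7.91-fold in Myl3-KO. Aph1a thus held 89.3% and 88.8% of the summed FPKM of both genes.

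Aph1b has a close neighbour, Aph1c, 19503 bases away on the same strand, and 24.7% of its words of 31 bases also occur there. The coding sequences were 96.1% identical over their alignment, with a longest identical run of 341 bases. The stretch below is the one of 90 coding bases within 1 exon, free of gaps, with the most differences. Sequence outside the coding bases was not searched for such a stretch. The stretch is shown because reads over its differences can tell the genes apart. Capitals mark the 9 positions at which they differ, on the GENCODE M21 transcripts, GRCm38, minus strand, 5′ to 3′, at chr9:66795266-66795355 for Aph1b and chr9:66834499-66834588 for Aph1c.
Aph1b: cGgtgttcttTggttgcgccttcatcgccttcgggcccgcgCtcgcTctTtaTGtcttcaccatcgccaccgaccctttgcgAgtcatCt
Aph1c: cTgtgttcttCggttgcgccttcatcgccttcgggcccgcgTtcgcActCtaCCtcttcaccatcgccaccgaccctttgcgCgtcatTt

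The counts of both genes were not whole numbers. Aph1c had 23.4 control counts and 14.65 Myl3-KO counts, with a CPM log2 ratio of -0.29 (-1.27 to 0.77), yet its FPKM went from 0.26 to 0.66. The deposited scales thus disagree in direction for Aph1c and give no direction for it. For Aph1b they gave log2 ratios of 0.02 by CPM and 0.01 by FPKM.

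Psen2 (ENSMUSG00000010609, chromosome 1, 180227004 to 180263438, minus strand) encodes presenilin 2, one of the catalytic subunits. It was the scarcest enzyme, with 39 control counts and 42 Myl3-KO counts, or 2.21 and 3.12 CPM. Its log2 ratio of 0.49 was the largest of the 9, but the interval ran from -0.17 to 1.16 and the adjusted p was 0.27 in the exact binomial test, so a difference was not detectable at this depth. By FPKM the log2 ratio was 0.58, a gap of 0.09 to the CPM ratio, which made Psen2 the only enzyme whose scales differed by more than 0.05. Over all genes compared, 21.2% showed a gap above 0.05.

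Adam10 and Adam17, the metalloproteases that shed the outer part of Notch and of many other surface proteins, were within counting error. Adam10 (ENSMUSG00000054693, chromosome 9, 70678997 to 70780229, plus strand) had 4312 and 3217 counts, or 244.8 and 238.7 CPM, a log2 ratio of -0.04 (-0.10 to 0.03). As the most deeply counted enzyme it had the narrowest interval, which leaves out any difference beyond a fold of 0.931 to 1.02 between these libraries, as far as counting error goes. Adam17 (ENSMUSG00000052593, chromosome 12, 21323509 to 21373632, minus strand) had 965.7 and 708 counts, or 54.8 and 52.5 CPM, a log2 ratio of -0.06 (-0.20 to 0.08). Its 3′ neighbour Iah1, on the opposite strand, overlaps 4.35% of the exon bases of Adam17 and had 141.3 and 137 counts. Per length, Adam10 was 4.34-fold above Adam17 in the control and 4.40-fold in Myl3-KO.

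Of the Fringe genes, Rfng was higher in Myl3-KO and Lfng was within counting error. Rfng (ENSMUSG00000025158, chromosome 11, 120780746 to 120784207, minus strand), which encodes Radical fringe, had 731 and 682 counts, or 41.5 and 50.6 CPM. This was 1.22-fold higher, a log2 ratio of 0.29 (0.13 to 0.44), with an adjusted p of 0.0011 in the exact binomial test. Lfng (ENSMUSG00000029570, chromosome 5, 140607320 to 140615545, plus strand), which encodes Lunatic fringe, had 746 and 520 counts, or 42.4 and 38.6 CPM. Its log2 ratio was -0.13 (-0.30 to 0.03), with an adjusted p of 0.21 in the exact binomial test. Mfng, the third Fringe gene of the mouse, was at 0 in both libraries, where a count of 0 allows up to 0.170 CPM (control) and 0.223 CPM (Myl3-KO). By FPKM, Rfng held 51.6% of the summed level of Rfng and Lfng in control cells and 58.8% in Myl3-KO cells.

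**Figure D3:**
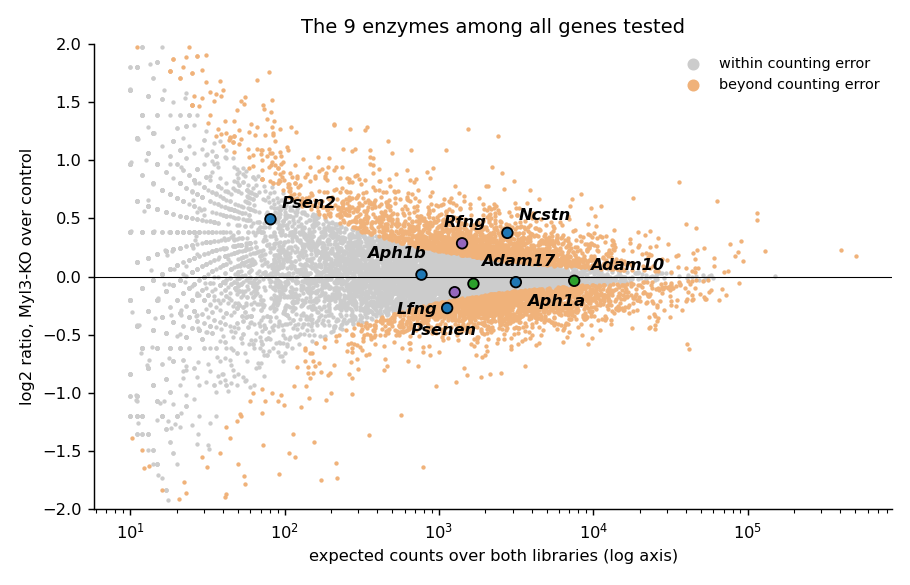
Log2 ratio, Myl3-KO over control (y axis), against expected counts over both libraries (x axis, log) for the genes tested, grey within and orange beyond counting error, with the 9 enzymes as large points in their family's colour. The 37 genes beyond 2 in either direction lie outside the axis, and Ncstn, Rfng and Psenen sit in the orange region on either side of 0 among many other genes.

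Ratios between enzymes of the same family do not depend on the library totals, so they were also compared within each library, a choice made after the data were seen. Of the 12 pairs within a family, 7 had a 95% interval of the change that left out 0. Normal intervals of the same ratio also gave 7 of these 12. By these, the share was 36.0% over all pairs of genes tested with counts in both libraries. It was 51.3% over all pairs of genes whose counts summed to at least 500. The 12 pairs include those of Psen2, which had 81 counts over both libraries, so neither share is like for like. Of the pairs with Psen2, only that with Psenen left out 0. How the 7 of 12 compares with these shares was not tested. The intervals given for single pairs are exact conditional intervals, the pairs share genes, and no p is given. For each Psenen count there were 2.01 Ncstn counts in control cells and 3.15 in Myl3-KO cells, a log2 change of 0.65 (0.44 to 0.85). Ncstn also rose relative to Aph1a, with 0.769 and 1.03 counts per Aph1a count, a log2 change of 0.42 (0.27 to 0.57). Ncstn relative to Aph1b changed by 0.36 (0.13 to 0.60), and the other pairs whose interval left out 0 were Psen2 with Psenen at 0.76 (0.07 to 1.46) and Psenen with Aph1a and with Aph1b.

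In the Fringe pair, counts of Lfng and Rfng were almost level in the control, with 1.02 Lfng counts per Rfng count, and were at 0.762 in Myl3-KO. The log2 change of that ratio was -0.42 (-0.65 to -0.20). For Adam10 over Adam17 the ratio was 4.47 in the control and 4.54 in Myl3-KO, with a change of 0.03 (-0.13 to 0.18). For the ADAM pair no change was detectable.

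Over the whole table the log2 ratio rose with transcript length and with GC content. Its median went from -0.07 in the fifth of genes with the shortest transcripts to 0.08 in the fifth with the longest, and from -0.08 to 0.11 from the fifth with the lowest GC to the fifth with the highest. Psenen and Psen2 fell in a bin of like genes whose median was -0.05, Ncstn in one at 0.10, and Lfng and Rfng in one at 0.08. With these medians subtracted, an alternative chosen after the data were seen, Ncstn stood at 0.28, Rfng at 0.21 and Psenen at -0.22. All 3 still passed the exact binomial test, Psenen only just within the 0.05 limit. Lfng stood at -0.21 and then passed as lower, with an adjusted p of 0.040 in the exact binomial test.

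**Figure D4:**
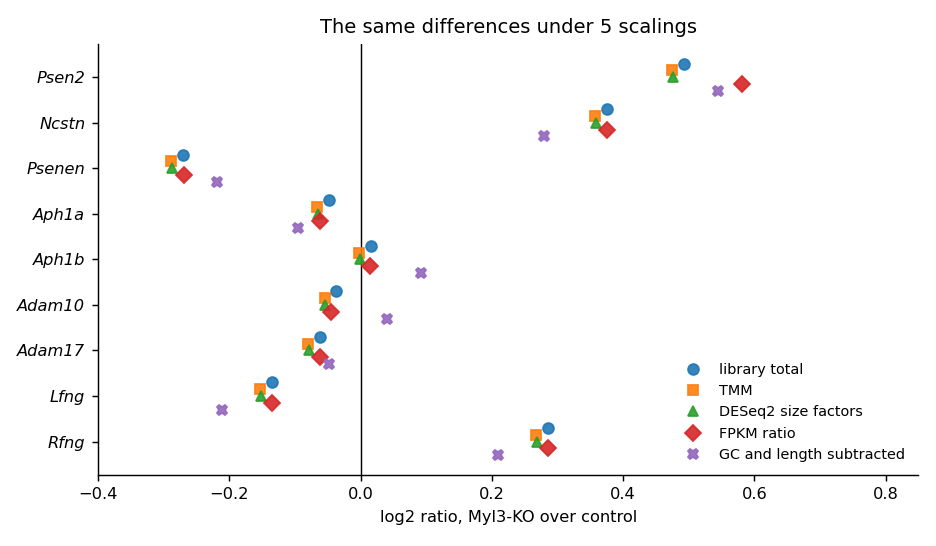
Log2 ratio of each enzyme gene, Myl3-KO over control (x axis), under 5 scalings given by symbol: library total, TMM, DESeq2 size factors, the deposited FPKM, and the library total with the median of genes of like GC content and transcript length subtracted. Ncstn, Rfng and Psen2 stay above 0 and Psenen, Aph1a, Adam17 and Lfng below 0 in all 5, whereas Aph1b and Adam10 lie near 0 and change sign.

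The enzymes' promoters were compared for short letter patterns, using RefSeq windows on GRCm38.p6 that matched all 9 genes with 11 windows, of which the 250 bases before the start site were read. The 4 patterns were searched on both strands, and a match describes letters and is not a binding site. The 9 genes are counted per gene, by a match in any window of the gene, whereas the shares are per window. GGGCGG, the GC box, was found for 7 of the 9 genes and in 32.7% of all windows, and CACGTG, an E-box, for 3 of the 9 and in 6.02%. CCGGAAG, a core of ETS factor sites, was found for 5 of the 9 genes and in 6.91% of all 32851 windows. It occurred before the RefSeq start sites of Ncstn and Rfng, which were higher in Myl3-KO, and of Psenen, which was lower. Ncstn had 2 matches, and the one that starts 41 bases before the RefSeq start site lies within the gene as annotated in GENCODE M21. Of the windows of Psenen, only chr7:30563578-30563877 held the match. Whether the letters go with the differences was not tested. The 30 bases around it follow, 5′ to 3′ on the strand of the gene, with matches in capitals, to show that the called genes share them with Aph1a and Adam17.
Ncstn, chr1:172082783-172082812, minus strand: CCGGAAGctcctcggacaaggaCTTCCGGt
Rfng, chr11:120784261-120784290, minus strand: ggcgacgttcgCTTCCGGggcggcgcgtcc
Psenen, chr7:30563671-30563700, minus strand: gctttagaaatCCGGAAGaggcgggacccc
Aph1a, chr3:95893891-95893920, plus strand: accaagtattcattggcCTTCCGGgggtgg
Adam17, chr12:21373645-21373674, minus strand: acggcacccttCTTCCGGctgtgggccgcg

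GTGGGAA, a core of sites of RBPJ, the DNA-binding partner of cleaved Notch, was found for 2 of the 9 genes, Lfng and Psen2, and in 5.42% of all windows. Of the windows of Psen2, only chr1:180245901-180246200 held the match, and this window lies within the annotated gene. Lfng is known in other tissues as a target of Notch as well as an enzyme acting on it, and its upstream bases are shown for that reason, with the match in capitals. The stretch of 229 bases on the plus strand, chr5:140607091-140607319, ends where the annotated Lfng transcripts begin, and the match starts 109 bases before the RefSeq start site.
Lfng: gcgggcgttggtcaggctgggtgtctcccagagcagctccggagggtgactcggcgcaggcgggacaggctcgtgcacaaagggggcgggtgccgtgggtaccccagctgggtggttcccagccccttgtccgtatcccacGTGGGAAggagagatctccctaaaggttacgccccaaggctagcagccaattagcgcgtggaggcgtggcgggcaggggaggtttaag

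The genes around these enzymes were taken from pathway lists, of which up to 4 genes per list with the largest log2 ratio and at least 100 counts are named. Their counts of called genes stand beside 18.6% higher and 16.8% lower over all genes tested, and 22.4% and 23.6% among the well counted ones, and nothing particular to a list was tested. Among partners that carry, process or inhibit ADAM10 and ADAM17, 4 of 11 tested were higher and none was lower, with a median log2 ratio of 0.13. Timp3, an inhibitor of ADAM17, had 6819 and 6481 counts, a log2 ratio of 0.31 (0.26 to 0.36). Furin, a convertase that matures ADAM proteases and Notch, had 1404 and 1344 counts and a log2 ratio of 0.32 (0.21 to 0.43). Tspan17 and Tspan5, tetraspanins that bind ADAM10, had log2 ratios of 0.37 and 0.29. The other partners tested were within counting error.

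Of 7 other ADAM genes tested, 2 were higher and 1 was lower, with a median of 0.25. Adam19 went from 69 to 79 counts, a log2 ratio of 0.58 (0.10 to 1.07), and Adam9, the most abundant of them, from 2562 to 1806, a log2 ratio of -0.12 (-0.21 to -0.03). Adam23 and Adam15 were within counting error at -0.18 and below 0.01. Among the presenilin-like intramembrane proteases, 1 of 4 was higher, and this was H13, the signal peptide peptidase, at 0.21 (0.07 to 0.36), while Sppl3, Sppl2a and Sppl2b lay between -0.04 and 0.09. Of 4 genes for assembly and modulation of gamma-secretase, 1 was higher and 1 was lower. Rer1, which holds unassembled subunits back in the early secretory route, fell by 0.26 on the log2 scale, from 1493 to 955 counts, and Gsap, described as a gamma-secretase activating protein, was higher at 0.40. Tmed10 was at -0.02.

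The other Notch glycosylation enzymes were divided, with 2 of 8 higher, 2 lower and a median of 0.09. Pofut1, which adds the O-fucose that Fringe enzymes extend, had 1061 and 956 counts, a log2 ratio of 0.24 (0.11 to 0.36). Poglut1, which adds O-glucose, had 1143 and 759 counts and a log2 ratio of -0.20 (-0.34 to -0.07). Xxylt1, which adds xylose to the chain that Poglut1 begins, had 410 and 236 counts and a log2 ratio of -0.41 (-0.65 to -0.18). Gxylt2, which acts between them, had 750 and 701 counts and a log2 ratio of 0.29 (0.14 to 0.44). Gxylt1 was at 0.13, Eogt at 0.16, Kdelc1 at 0.03 and Kdelc2 at 0.05, all within counting error.

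Among other substrates of these proteases, 4 of 12 tested were higher and none was lower, with a median of 0.10. Lrp1, a large endocytic receptor, had 4484 and 5170 counts, a log2 ratio of 0.59 (0.53 to 0.65). Il6ra and Tnfrsf1b, which are shed by ADAM17, had log2 ratios of 0.54 and 0.51, and Hbegf was at 0.43 without passing the test. The Notch receptors and ligands had a median of 0.75 over 5 genes tested, with 3 higher and none lower. That median is the value of Notch4, which had 21 and 27 counts and was within counting error (-0.13 to 1.64). Jag1 went from 421 to 687 counts, a log2 ratio of 1.09 (0.92 to 1.27), and Notch1 from 139 to 217, a log2 ratio of 1.03 (0.71 to 1.35). Notch2, the most abundant receptor, was at 0.33. Among regulators of Notch endocytosis and ubiquitination, 6 of 12 were higher and 1 was lower, with a median of 0.21, and Dtx3, Dtx3l, Mib2 and Dtx4 had the largest named ratios at 0.61, 0.49, 0.40 and 0.33. Of the nuclear effectors and targets, 4 of 7 were higher and none was lower, with a median of 0.32, and Rbpj stood at 0.21 and Maml3 at 0.32, while Maml2 and Maml1 were within counting error at 0.14 and 0.08. Hes1, a Notch target named after its values were seen, went from 21 to 77 counts. The 9 enzymes had a median of -0.04 beside 0.75, the value of Notch4, and 0.32 in these lists, and the difference between the lists was not tested.

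**Figure D5:**
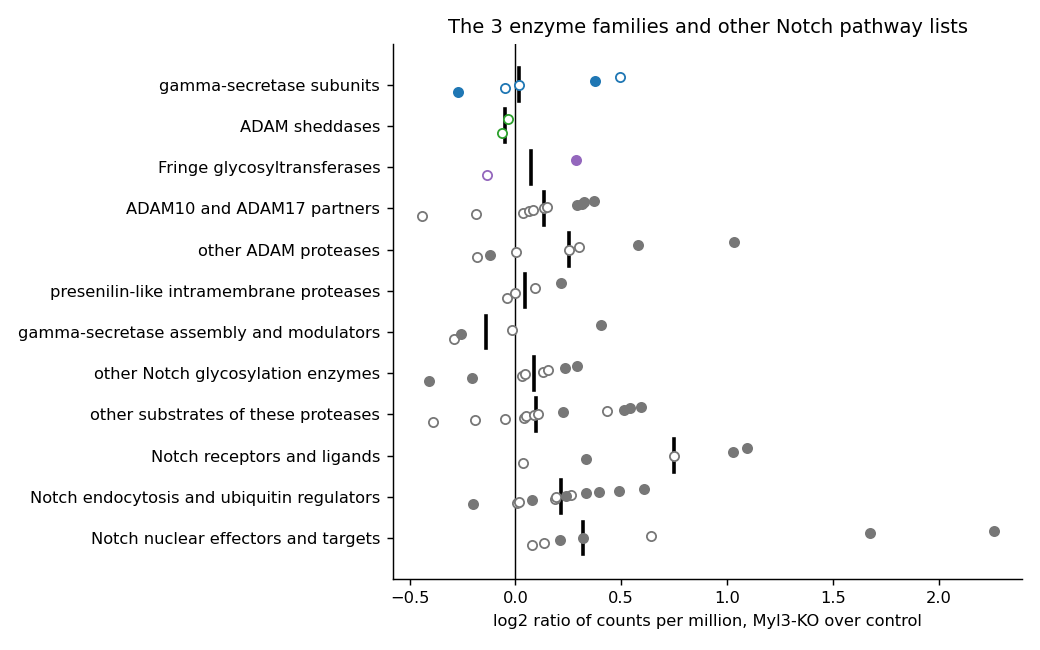
Log2 ratio, Myl3-KO over control (x axis), of each gene tested in the 3 enzyme families (coloured) and in 9 other lists (grey), filled where it differs beyond counting error, with the list median as a black bar. The enzyme families centre near 0, between -0.05 and 0.08. For the 5 Notch receptors and ligands the bar at 0.75 is the open point of Notch4.

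The deposited annotation places 8 of the 9 enzymes in the KEGG Notch signaling pathway. Without them, 17 of the 32 other pathway genes tested were higher and 2 were lower, with a median log2 ratio of 0.20. The shares over all genes tested were 18.6% higher and 16.8% lower, and the difference from them was not tested.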

How the data were processed

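The authors deposited 1 table with expected counts and FPKM for 22156 genes in 1 control and 1 Myl3-KO library of mouse primary chondrocytes. Expected counts are estimated reads per gene without normalization, and FPKM as deposited by the authors scale them by gene length and library. Per the labels, RNA was Trizol extracted and libraries were made with a SMARTER mRNA-Seq kit, whereas the methods describe oligo bead enrichment and random primers. The submitters' processing notes name GRCm38 and mm10. Aligner, counter and strand setting are not given in the sources used here. No per-sample column was left out.

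Library totals were 17612434.91 and 13477976.98. Counts were rounded for a two-sided exact binomial test (scipy 1.17.1), with log2 ratios from unrounded values. Genes whose counts summed to 10 or more were tested, a floor of 3 counts was used, and p-values were adjusted by Benjamini-Hochberg at 0.05. No residual degrees of freedom were left for the quasi-likelihood test of edgeR or for DESeq2, since each genotype had 1 library. Alternatives were TMM factors and the exact test of edgeR 4.0.16, with the coefficient of variation between replicates set by hand, DESeq2 1.42.0 size factors, other filters, 1 added count, FPKM, and subtraction of GC and length medians in bins, taken from each gene's longest GENCODE M21 transcript. In simulated counts of this comparison with 200 genes of at least 500 counts changed by 0.25 on the log2 scale, 107 were recovered among 12450 genes tested, and with a change of 0.5, 192 among 12447. These simulated counts held counting noise only, so recovery in the presence of variation between mice or cultures was not tested. Sequences were aligned with biopython 1.88. Positions and overlaps came from GENCODE M21 on GRCm38, not necessarily the authors' annotation, and promoters from RefSeq on GRCm38.p6. Named were the 9 enzymes, genes overlapping them or sharing sequence, and up to 4 genes per pathway list. Members and lists were chosen with earlier results of these data known. RefSeq synonyms placed Hm13 as H13.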

Additional observations from a re-analysis of the deposited data

How the results depend on the processing

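The calls on the 9 enzymes rest on counting error alone. With a coefficient of variation between replicates of 0.1, 0.2 or 0.4 assumed in edgeR's exact test, 0 enzymes were higher and 0 were lower at each value. Among all genes the higher calls then numbered 41, 3 and 1 and the lower calls 20, 1 and 0, so at 0.2 only 4 genes of the table differed. With GC and length medians subtracted, an alternative chosen after the data were seen, 2 enzymes were lower instead of 1, because Lfng joined Psenen. Under TMM factors, DESeq2 size factors, no filter and at least 10 counts in each library, Ncstn and Rfng were higher and Psenen was lower, as reported. No setting brought an enzyme past 1.5-fold, and Psen2 came nearest at 0.58 by FPKM. Aph1b was within counting error at every setting that was tested, with log2 ratios from -0.002 to 0.09, and so was Adam10, from -0.05 to 0.04, and both changed sign. Leaving out a replicate was not possible with 1 library per genotype. No paired analysis was possible because each genotype has 1 library, so the groups share fewer than 2 replicate numbers. Depth limits Psen2 most, whose interval spans 1.33 on the log2 scale.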
